A study of Homo sapiens with 16 samples.

Results

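Histone genes encode the proteins around which DNA is wound. They were taken here as every gene-level array probe set whose only gene symbol is that of a histone gene, in former or current nomenclature. The rule found 74 genes among 18395 genes with a probe set of their own, and among 33297 gene-level probe sets in all. They comprised 10 linker histone H1 genes, 21 H2A, 19 H2B, 11 H3 and 13 H4 genes. By position, 49 lay in the large cluster HIST1 on chromosome 6, 6 in HIST2 and 3 in HIST3 on chromosome 1, 1 (H4C16) was the single gene of HIST4 on chromosome 12, and 15 lay elsewhere. A further 28 probe sets carried several symbols, most of them near-identical histone copies, and all probe sets of the variant gene H3-3A were among them, so these were not used.

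The cells were L1236, a human cell line established from Hodgkin and Reed-Sternberg cells, the malignant B-lineage cells of Hodgkin lymphoma. All of them carried a retrovirus with a doxycycline-inducible short hairpin RNA against RELB, a subunit of the alternative NF-kB pathway. The arrays labelled induced (n = 4) came from transduced cells given doxycycline, and the arrays labelled uninduced (n = 4) from transduced cells without it. Each label comprised 2 arrays with the code B_1 and 2 with B_4, each with a last number 1 or 4. What these codes stand for is not given in the sources used here, nor is the length of the treatment. Array values are given below in the order B_1 number 1, B_1 number 4, B_4 number 1 and B_4 number 4. Cells with a control hairpin or with doxycycline alone were not analysed here. A single line was used. The labels do not say whether arrays sharing a label stem from different cultures, and the tests below therefore weigh differences against a spread that may be technical only.

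In a nucleosome, DNA is wrapped around a core of H2A, H2B, H3 and H4, and H1 binds the linker DNA between cores. The clustered genes are transcribed mainly in S phase, when new DNA must be packaged. Their mRNAs end in a stem-loop that is bound by the protein SLBP instead of a poly(A) tail. Variant histones such as H2A.Z and H3.3 come mostly from genes outside the clusters, whose polyadenylated mRNAs are made throughout the cell cycle.

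Promoter sequence was shown first because it separates the classes in a way the choice of genes did not use. RefSeq windows of 300 bases on GRCh38.p14, 250 before and 50 after the transcription start, were found for 66 of the 74 genes and for 27305 genes in all. The 5 windows below belong to the genes H1-1 (chr6:26017738-26018037, minus strand), H1-4 (chr6:26156079-26156378, plus strand), H2BC12 (chr6:27146809-27147108, minus strand), H2BC21 (chr1:149886633-149886932, minus strand) and H4C14 (chr1:149832407-149832706, plus strand). H1-1, H1-4, H2BC12 and H4C14 were among the histone genes that differed most by label, and the window of H2BC21 also holds the start region of its divergent neighbour H2AC20, which differed in the opposite direction. Capitals mark 4 motifs on either strand, and matches that overlap run together. The motifs are the CCAAT box, the TATA box in the form TATAAA, the octamer ATTTGCAT and the H1 box AAACACA.
H1-1: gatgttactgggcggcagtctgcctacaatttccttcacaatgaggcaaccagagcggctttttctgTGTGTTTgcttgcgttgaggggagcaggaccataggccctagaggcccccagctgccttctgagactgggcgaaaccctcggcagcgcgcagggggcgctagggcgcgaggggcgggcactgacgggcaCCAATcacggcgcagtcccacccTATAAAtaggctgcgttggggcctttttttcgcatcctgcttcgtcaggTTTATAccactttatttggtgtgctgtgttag
H1-4: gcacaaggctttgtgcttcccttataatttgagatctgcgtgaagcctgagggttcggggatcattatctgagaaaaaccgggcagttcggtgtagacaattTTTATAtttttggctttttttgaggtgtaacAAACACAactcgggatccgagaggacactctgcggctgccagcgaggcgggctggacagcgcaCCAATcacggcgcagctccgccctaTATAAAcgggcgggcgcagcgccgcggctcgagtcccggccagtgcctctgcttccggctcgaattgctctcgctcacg
H2BC12: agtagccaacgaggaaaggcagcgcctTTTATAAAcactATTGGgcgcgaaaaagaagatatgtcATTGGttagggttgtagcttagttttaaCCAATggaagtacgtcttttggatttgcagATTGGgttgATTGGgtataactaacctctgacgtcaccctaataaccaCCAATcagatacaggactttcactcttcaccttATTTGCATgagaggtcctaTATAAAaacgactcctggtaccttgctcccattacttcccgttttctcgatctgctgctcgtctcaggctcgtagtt
H2BC21: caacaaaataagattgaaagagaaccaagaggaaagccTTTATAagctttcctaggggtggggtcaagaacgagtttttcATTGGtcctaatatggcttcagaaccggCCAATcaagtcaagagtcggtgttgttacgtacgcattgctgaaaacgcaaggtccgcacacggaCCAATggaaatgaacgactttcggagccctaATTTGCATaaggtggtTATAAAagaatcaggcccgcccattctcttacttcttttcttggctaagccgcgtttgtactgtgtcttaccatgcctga
H4C14: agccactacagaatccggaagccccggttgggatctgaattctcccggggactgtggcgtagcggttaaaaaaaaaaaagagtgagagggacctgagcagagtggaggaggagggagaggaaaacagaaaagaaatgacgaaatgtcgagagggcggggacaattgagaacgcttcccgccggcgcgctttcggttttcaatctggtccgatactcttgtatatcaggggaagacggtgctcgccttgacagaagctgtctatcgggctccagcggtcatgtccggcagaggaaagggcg
The octamer was found in 13 of 16 clustered H2B promoters and 10 of 13 clustered H2A promoters, and in 0 of the 6 H1, 7 H3 and 11 H4 clustered promoters. Most matches in H2A promoters lay on the other strand, since only 1 of 13 had it on the gene's own strand, against 12 of 16 for H2B. All 6 clustered H1 promoters held AAACACA, as did 1 of 13 for H2A and 0 for the other classes. CCAAT was found in every clustered H1, H2A, H2B and H3 promoter and in 3 of 11 H4 promoters. Across all 66 histone promoters, CCAAT was in 83.3% (35.7% of all promoters), TATAAA in 60.6% (12%), ATTTGCAT in 36.4% (1.80%) and AAACACA in 12.1% (5.76%). A match is a description of these letters in this window and not a binding site, and the H4C14 window held none of the 4.

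Signals were deposited as normalized values on a log scale taken as log2, with column medians of 5.79 to 5.88. The target of the hairpin did not bear out the labels. RELB had signals of 7.22, 7.26, 7.39 and 7.14 in the arrays labelled induced, against 7.23, 7.38, 7.54 and 7.45 in the arrays labelled uninduced. The values overlapped, and the difference of -0.15 ± 0.09 (SE) did not pass the test (limma adjusted p = 0.212, two-sided exact permutation p = 0.171, where 0.0286 is the smallest possible). Of 8 Hodgkin and Reed-Sternberg markers 2 exceeded a log2 signal of 7 in all arrays (their summed signals were 66.0 to 68.7 in the arrays labelled induced and 64.5 to 65.2 in those labelled uninduced), and of 5 measured B-cell markers 1, PAX5, did so (43.0 to 44.5 and 31.1 to 32.4). The T-cell, myeloid, fibroblast and epithelial lists had 0 markers above 7 in all arrays, on a log scale that has no zero. Their sums were 26.7 to 27.5 (induced) and 25.9 to 26.6 (uninduced) for 6 T-cell markers, 23.8 to 25.2 and 23.9 to 25 for 5 myeloid, 29.9 to 30.5 and 29.3 to 30.1 for 6 fibroblast, and 31.9 to 32.8 and 29.1 to 30.7 for 5 epithelial markers. The Hodgkin, B-cell, T-cell and epithelial sums did not overlap between labels, and their part in the histone differences was not tested. Only 1 of the 6 T-cell markers, CD8A, passed the filter on low signals described below. It did not pass the test (limma adjusted p = 0.622), so the T-cell sums are mostly low signals. Some single markers differed by a large amount. CD79A, part of the B-cell receptor, averaged 11.04 ± 0.26 in the arrays labelled induced and 5.73 ± 0.13 in those labelled uninduced (SD, n = 4 each; 39.6-fold). The Hodgkin marker TNFRSF8 (CD30) averaged 11.59 ± 0.10 in the arrays labelled induced and 6.89 ± 0.21 in those labelled uninduced (25.9-fold). CD22 was 17.2-fold, PAX5 6.80-fold and the epithelial marker CDH1 4.98-fold higher in the arrays labelled induced. The lists were not uniform. The Hodgkin markers TRAF1 (6.51-fold) and IRF4 (1.68-fold) were higher there. CD40, CCL22 and FSCN1 of the same list were 3.33-fold, 3.35-fold and 3.58-fold lower, and CCL17 and CD70 did not pass. The B-cell marker CD79B did not pass, and the epithelial marker KRT8 was 1.46-fold lower. Whether the labels are right, and whether arrays of both labels hold the same cells, was not tested, so each difference below is one between arrays with these labels and not one tied to RELB.

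Of the 74 histone genes, 67 passed the filter on low signals (mean of at least 4.77, the 25th percentile) and were tested. Histone genes differed by label in both directions: 27 were higher in the arrays labelled induced, 20 were lower and 20 did not pass (limma, Benjamini-Hochberg adjusted p under 0.05 over 13796 genes). Those shares were 40.3% higher and 29.9% lower, beside 27.1% and 28.4% of all tested genes, and 70.1% called beside 55.5%. At least 2-fold differences were found for 8 higher and 5 lower histone genes (19.4% together; 6.90% of all genes higher, 9.62% lower and 16.5% together). Of these, H1-1 and H2BC10 passed the filter only through the label with the higher signal, and H2BC10 is under 2-fold when its lower signals are set to the filter level. The signals of the labels did not overlap for 44 histone genes (65.7%, 49.8% of all genes). The median log2 difference was 0.07, ranging from -3.51 to 2.34, and 0.02 over all genes. Each array centred on its median moved the difference of all genes by 0.13, and then 31 histone genes were higher and 19 lower. Over all genes the same centring gave 5431 higher and 3094 lower calls, against 3744 and 3912 as deposited, so the background rose as well. H4C14 and H4C15 had the same value in 8 of 8 arrays and are 1 measurement, so that 26 genes were higher when they were counted once. These are bulk RNA signals, in which fewer cells making a histone mRNA and less of it per cell cannot be told apart.

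**Figure D1:**
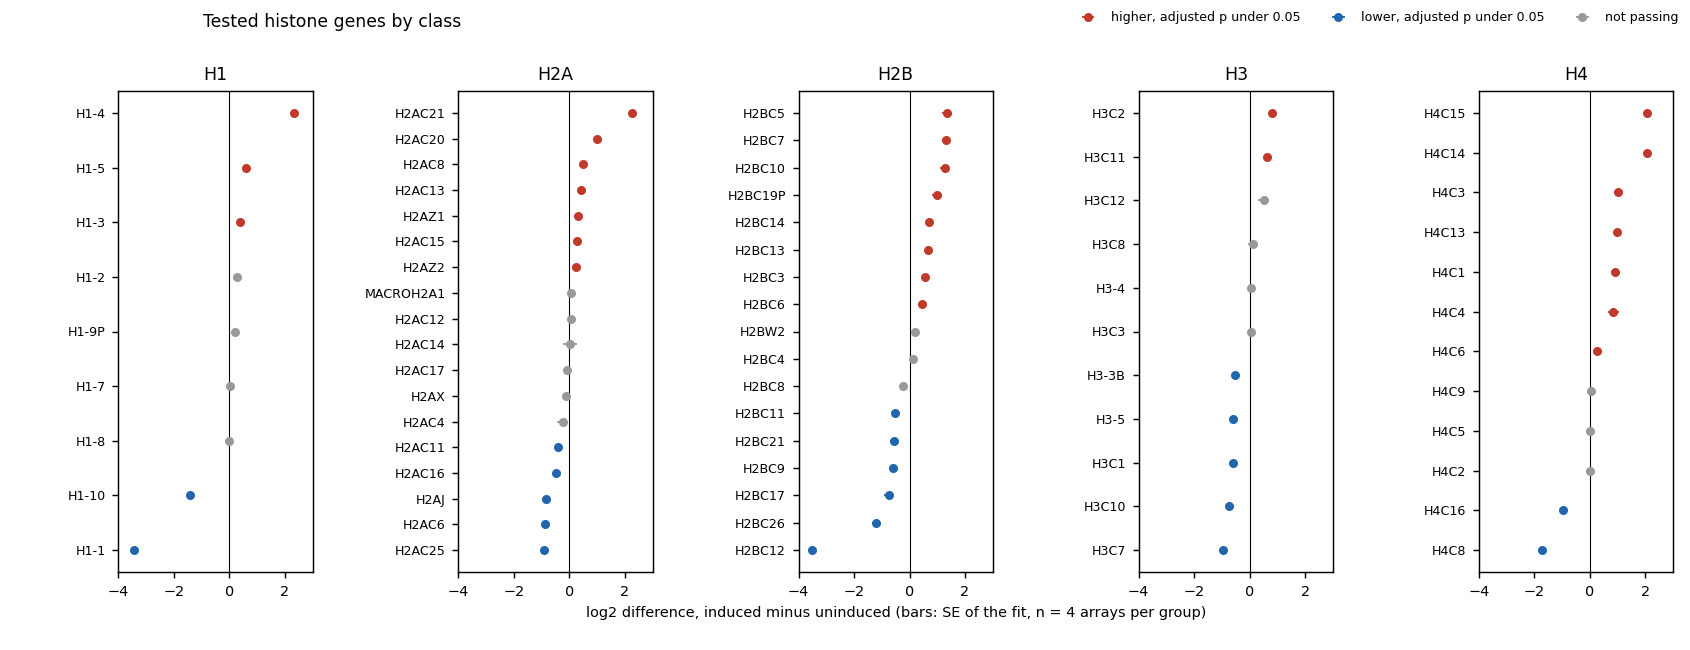
Log2 difference of the 67 tested histone genes (induced minus uninduced, 4 arrays per label), one panel per class, with the standard error of the fit as bars. Every class holds genes on both sides of 0, from H2BC12 at -3.51 to H1-4 at 2.34.

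Linker histone genes of the same cluster differed in opposite directions. Of the 9 linker genes tested, 3 had higher signals, 2 had lower ones and 4 missed the threshold. These shares, 33.3% and 22.2%, stood beside 27.1% and 28.4% of all tested genes. Together 55.6% were called, near the 55.5% of all genes. H1-1, a clustered linker histone gene, had log2 signals of 4.70, 4.64, 4.89 and 4.75 in the arrays labelled induced, against 7.58, 7.87, 8.59 and 8.60 in the arrays labelled uninduced. The labels were far apart, but the mean labelled induced, 4.74, lay under the filter level of 4.77, so that the gene passed the filter only through the arrays labelled uninduced and its fold is a lower bound. With signals under the filter level set to it, H1-1 was at least 10.3-fold lower (fitted difference -3.42 ± 0.14, adjusted p = 8.32e-09). H1-4, another linker histone of the same cluster, had 12.72, 12.60, 12.58 and 12.57 in the arrays labelled induced, against 10.09, 10.13, 10.44 and 10.45 in those labelled uninduced. These did not overlap either, and the difference was 2.34 ± 0.10, or 5.07-fold higher (adjusted p = 9.96e-09). H1-5 (0.61 ± 0.12) and H1-3 (0.40 ± 0.08) were higher as well, whereas H1-2, at 0.29 ± 0.14, did not pass (adjusted p = 0.114). H1-10, a replication-independent linker histone outside the clusters, had 6.26, 6.10, 6.62 and 6.32 in the arrays labelled induced and 7.60, 7.75, 8.12 and 7.48 in those labelled uninduced. It was 2.67-fold lower with no overlap (-1.41 ± 0.12, adjusted p = 2.10e-06). The germline linker genes H1-7 and H1-8 (0.01 and -0.01) and the pseudogene H1-9P (0.20) did not pass.

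Among the 18 H2A genes tested, 7 had higher signals, 5 lower ones, and 6 missed the threshold (38.9% higher and 27.8% lower, beside 27.1% and 28.4% of all genes). H2AC21, a HIST2 gene for a core H2A, had 12.14, 12.07, 12.21 and 12.19 in the arrays labelled induced, against 9.72, 9.88, 10.07 and 9.97 in the arrays labelled uninduced. The labels were separated by about the size of the difference itself, 2.24 ± 0.08, or 4.73-fold higher (adjusted p = 3.26e-09). Its HIST2 neighbour H2AC20 was 0.99 ± 0.09 higher, with 11.20, 11.03, 11.13 and 11.14 in the arrays labelled induced against 9.98, 10.12, 10.20 and 10.23 in those labelled uninduced. HIST1 H2A genes differed less: H2AC8 was higher (0.49 ± 0.11) and H2AC6 lower (-0.89 ± 0.11). H2AC6 had 8.83, 8.25, 8.66 and 8.47 in the arrays labelled induced and 9.30, 9.27, 9.70 and 9.50 in those labelled uninduced. H2AC25, the HIST3 member, was 1.89-fold lower (-0.92 ± 0.12). Its exon-level probe sets averaged 0.04 and so lay on the other side of 0. The remaining calls were small, with H2AC13 and H2AC15 0.43 and 0.26 higher and H2AC16 and H2AC11 lower by -0.48 and -0.42.

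H2BC12 was among the histone genes with the largest decreases. Of the 17 H2B genes tested, 8 had higher signals, 6 had lower ones and 3 missed the threshold (47.1% higher and 35.3% lower, beside 27.1% and 28.4% of all genes). H2BC12, a HIST1 gene for a core H2B, had 6.80, 6.50, 7.64 and 6.97 in the arrays labelled induced, against 10.24, 10.10, 10.89 and 10.73 in the arrays labelled uninduced. No value overlapped, and the gene was 11.4-fold lower (-3.51 ± 0.10, adjusted p = 4.09e-10). Within both labels its B_4 arrays read higher than its B_1 arrays. H2BC26, the HIST3 H2B gene, was 2.30-fold lower (-1.20 ± 0.11), with 4.99, 5.03, 4.75 and 5.41 in the arrays labelled induced against 6.03, 6.16, 6.25 and 6.55 in those labelled uninduced. H2BC17 was lower as well (-0.75 ± 0.18), as were H2BC9, H2BC21 and H2BC11 (-0.59, -0.56 and -0.51). HIST1 genes for core H2B that were more than 2-fold higher were H2BC5 and H2BC7, and by the fitted difference alone also H2BC10. H2BC5 had 7.09, 6.74, 6.78 and 6.31 in the arrays labelled induced, against 5.06, 5.67, 5.58 and 5.25 in those labelled uninduced (1.34 ± 0.17). H2BC7 had 9.47, 9.51, 9.69 and 9.61 against 8.09, 7.97, 8.49 and 8.55 in the same order of labels (1.30 ± 0.09). H2BC10 had 6.0, 5.60, 5.71 and 5.67 in the arrays labelled induced and 3.96, 4.38, 4.83 and 4.79 in those labelled uninduced (1.26 ± 0.17). Its mean labelled uninduced, 4.49, lay under the filter level, so that it passed only through the arrays labelled induced and was at least 1.94-fold higher. None of these 3 overlapped between labels. H2BC14 was 1.63-fold higher (0.70 ± 0.10).

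H3 was the class with more genes lower than higher. Signals of 2 of the 11 tested were higher and of 5 lower (18.2% and 45.5%, beside 27.1% and 28.4% of all genes). Of the 11, 0 differed 2-fold (16.5% of all genes). H3C7, a HIST1 core H3 gene, had 7.47, 7.47, 7.33 and 7.36 in the arrays labelled induced, against 8.08, 8.08, 8.75 and 8.63 in the arrays labelled uninduced. It was 1.97-fold lower with no overlap (-0.97 ± 0.14, adjusted p = 0.000121). H3C10 (-0.74 ± 0.12) and H3C1 (-0.59 ± 0.12) were lower too, but the exon-level probe sets of H3C10, a pair with identical values, stood at 0.44 (adjusted p = 0.109). H3C2 was higher, with 11.40, 11.49, 11.49 and 11.47 in the arrays labelled induced against 10.49, 10.47, 10.95 and 10.77 in those labelled uninduced (0.79 ± 0.10, adjusted p = 4.03e-05). H3C11 was higher by a similar amount (0.62 ± 0.09). H3C12 (0.50), H3C8 (0.12), H3C3 (0.04) and the testis gene H3-4 (0.05) did not pass.

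With the shared measurement of H4C14 and H4C15 counted once, 6 of 11 were higher and 2 lower, and the median difference was 0.26 (7 of 12 and 0.56 with both counted). The shares with both counted were 58.3% higher and 16.7% lower, beside 27.1% and 28.4% of all genes. The shared measurement of H4C14 and H4C15, HIST2 genes for the core histone H4, was 10.57, 10.34, 10.53 and 10.51 in the arrays labelled induced, against 8.04, 8.13, 8.74 and 8.84 in the arrays labelled uninduced. It was 4.14-fold higher without overlap (2.05 ± 0.13, adjusted p = 2.30e-07), and the 300 promoter bases of both genes were identical. H4C3 had 11.38, 11.33, 11.48 and 11.28 in the arrays labelled induced, against 9.86, 9.94, 10.77 and 10.84 in those labelled uninduced (1.02 ± 0.16, adjusted p = 0.000270). H4C13, H4C1, H4C4 and H4C6 were also higher (0.98, 0.89, 0.85 and 0.26). H4C8 stood on the other side, with 7.28, 7.08, 7.22 and 7.14 in the arrays labelled induced against 8.68, 8.50, 9.28 and 9.18 in those labelled uninduced (-1.73 ± 0.13, 3.32-fold lower). Its exon-level probe sets lay on both sides of 0, as described further on. H4C16, the gene of HIST4, was 1.93-fold lower (-0.95 ± 0.14). It had 5.84, 5.86, 5.53 and 5.88 in the arrays labelled induced, against 6.87, 6.34, 6.85 and 6.85 in those labelled uninduced.

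**Figure D2:**
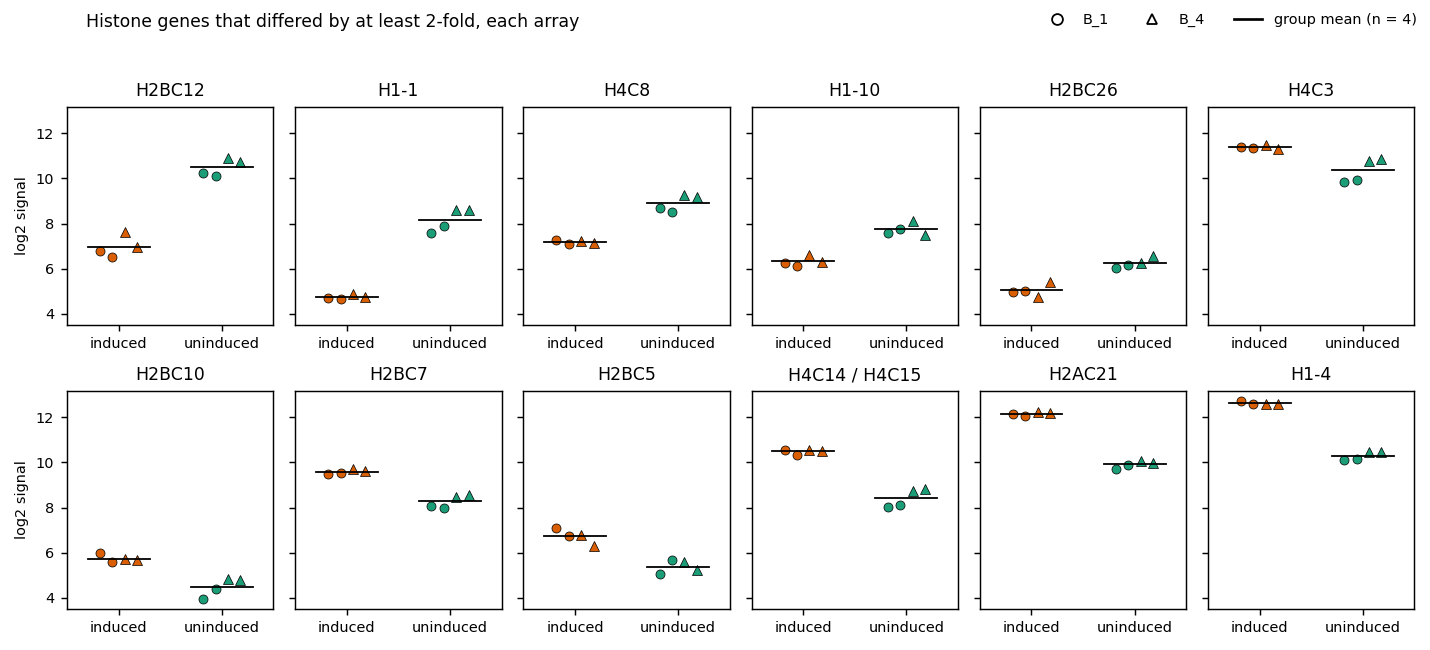
Log2 signal of each array for the 13 histone genes that differed at least 2-fold by the fitted difference, induced on the left and uninduced on the right. B_1 arrays are circles, B_4 arrays are triangles and the mean of 4 arrays is a line. H4C14 and H4C15 share a panel because their values are the same, and no gene shown overlaps between labels.

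Among variant genes outside the clusters, both H2A.Z genes were higher and H3-3B was lower. Outside the clusters 2 of the 12 tested genes had higher signals and 4 lower ones, or 16.7% and 33.3%, beside 25 and 16 of the 55 clustered genes. Together 6 of 12 were called, a share near the 55.5% of all genes, and the difference from the clustered genes was not tested. The 2 higher were the H2A.Z genes, whose protein marks promoters. H2AZ1 had 11.91, 11.66, 11.91 and 11.79 in the arrays labelled induced, against 11.45, 11.43, 11.58 and 11.60 in the arrays labelled uninduced (0.30 ± 0.08, adjusted p = 0.00952). H2AZ2 was 0.23 ± 0.09 higher (adjusted p = 0.0490), a call that was lost without 7 of the 8 arrays in turn. H3-3B, which encodes the replication-independent H3.3, had 9.99, 10.21, 10.04 and 9.88 in the arrays labelled induced, against 10.50, 10.58, 10.65 and 10.46 in those labelled uninduced. It was lower without overlap (-0.52 ± 0.10, adjusted p = 0.000810), as was the related gene H3-5 (-0.59 ± 0.13). H2AJ, an H2A variant known from senescent human fibroblasts, was 1.78-fold lower (-0.83 ± 0.09). H2AX, whose phosphorylated form marks DNA breaks, differed by -0.11 ± 0.10 (adjusted p = 0.398), and MACROH2A1, a variant of repressed chromatin, by 0.07 ± 0.08 (adjusted p = 0.478). H2AX stood at 0.02 once each array was centred on its median.

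The 7 genes under the filter were H1-6, H2AC1, MACROH2A2, H2AP, H2BC1, H2BW1 and H4C7, of which H1-6, H2AC1, H2BC1 and H2BW1 are known as testis genes. Their mean signals per label lay between 3.45 and 4.66, and they were not tested. H1-6 had 3.72, 4.01, 3.80 and 3.71 in the arrays labelled induced, against 4.16, 3.94, 4.71 and 4.51 in those labelled uninduced.

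Genes of a cluster did not move as a block. In HIST1, 20 of 45 tested genes were higher and 12 lower (44.4% and 26.7%, beside 27.1% and 28.4% of all tested genes, which also differed in both directions). In HIST2, 4 of 5 measurements were higher (80.0%), with H4C14 and H4C15 counted once, and H2BC21 was lower. In HIST3, H2AC25 and H2BC26 were lower and H3-4 did not pass. Of the 66 genes with a promoter window, 10 pairs had starts on opposite strands within 1000 bases, 9 of them an H2A and an H2B gene, and both genes of 9 pairs were tested. Both genes passed in 5 pairs, in the same direction in 4: H2AC25 with H2BC26, H3C7 with H2BC9, H2BC11 with H2AC11 (all lower) and H2BC13 with H2AC13 (higher). Of all tested histone genes 70.1% were called. Whether paired genes shared a direction more often than other histone genes was not tested. The pair called in opposite directions was H2BC21 and H2AC20, whose starts lie 236 bases apart. H2BC21 had 7.63, 7.69, 7.56 and 7.59 in the arrays labelled induced, against 7.89, 7.99, 8.66 and 8.16 in the arrays labelled uninduced (-0.56 ± 0.14, adjusted p = 0.00526), while H2AC20 was 0.99 higher. These are gene-level calls. The exon-level probe sets of H2BC21 ran from -1.94 to 0.83 and those of H2BC11 from -3.61 to 1.01, with both ends called. Those of H2AC25 averaged 0.04, and those of H2BC26 stood at -1.99 (called) and 0.60 (not passing).

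Across arrays of the same label, histone genes deviated together in the arrays labelled uninduced. Each gene's deviation from its mean over the 4 arrays of its label was taken, and the median over the 67 genes was 0.07, -0.05, 0.06 and -0.05 in the arrays labelled induced. In the arrays labelled uninduced it was -0.18, -0.17, 0.19 and 0.14, so that both B_4 arrays lay above both B_1 arrays. Over all tested genes the same median stayed between -0.01 and 0.03. The uninduced B_4 arrays were above the uninduced B_1 arrays in each of the 5 classes, with H4 at -0.23, -0.23, 0.24 and 0.24. The list of 33 tested S phase and DNA replication genes had 0.13, -0.09, 0.10 and -0.16 in the arrays labelled induced, against -0.15, -0.14, 0.19 and 0.09 in those labelled uninduced. The part of the cell cycle in the histone deviations was not tested.

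**Figure D3:**
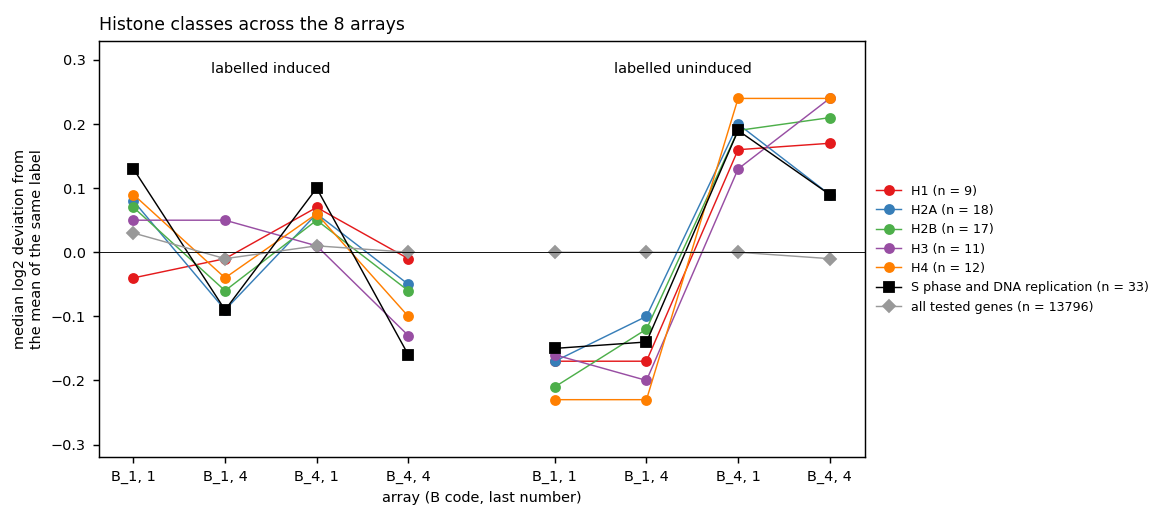
Median log2 deviation from the mean of the same label, for each histone class, the S phase list and all tested genes, by array (B code, last number); lines only join arrays of a label. Histone classes and the S phase list lie below 0 in the uninduced B_1 arrays and above it in the uninduced B_4 arrays, while all genes stay within 0.03 of 0.

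Between B codes over both labels, limma called 0 of 67 histone genes (0% of all genes), with 14 at an unadjusted p under 0.05 (20.9%, 13.9% of all genes). H2BC12 had the lowest p (0.65, B_4 minus B_1, unadjusted p = 6.74e-05), ahead of H1-1 (0.51) and H2BC7 (0.33). Between last numbers 0 were called as well, with 5 at an unadjusted p under 0.05 (7.46%, 7.04% of all genes). The label difference depended on the B code for 1 gene, H3C8, called by the interaction term (-1.11 ± 0.15, adjusted p = 0.0222, 0.297% of all genes called). H3C8, a core H3 gene, had 8.20, 7.99, 8.17 and 7.99 in the arrays labelled induced, against 7.51, 7.32, 8.62 and 8.40 in the arrays labelled uninduced. Its label difference was 0.68 within B_1 and -0.43 within B_4, and the interaction call was lost when any 1 of the 8 arrays was left out. At an unadjusted p under 0.05 the interaction took 30 histone genes (44.8%, 11.9% of all genes), and its estimate was below 0 for 59 (88.1%, 48.2% of all genes), also for H4C3 (-0.88) and H2BC17 (-0.96). All 30 were among the 55 clustered genes, and 0 among the 12 outside.

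Within the arrays labelled uninduced, a contrast chosen after these values were seen, 15 histone genes were higher in B_4 than in B_1 and 0 lower (22.4% higher, beside 0.776% of all genes higher and 2.09% lower). For 53 genes both B_4 values exceeded both B_1 values (79.1%, 27.5% of all genes), for 0 genes both lay below, and the median difference was 0.34. H3C8 (1.09 ± 0.11), H4C3 (0.91 ± 0.12) and H1-1 (0.87 ± 0.13) were among the 15, all of them clustered genes. The count rests on 2 arrays a side: it was 0 without either B_1 array, 1 without either B_4 array and 6 with exon-level means. Within the arrays labelled induced, limma called 0 histone genes (0.0217% of all genes higher and 0.0435% lower), with 4 at an unadjusted p under 0.05 (8.18% of all genes). Both B_4 values exceeded both B_1 values for 8 genes (14.2% of all genes) and lay below them for 9 (15.2%), with a median difference of 0.01. There the last numbers differed instead, with both values of number 4 below both of number 1 for 31 genes (46.3%, 23.0% of all genes), where limma called 0 and 6 had an unadjusted p under 0.05 (9.11% of all genes). By label within B_1, 30 histone genes were higher and 13 lower (23.2% and 25.5% of all genes). Within B_4, 20 were higher and 23 lower (22.6% and 23.7%).

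**Figure D4:**
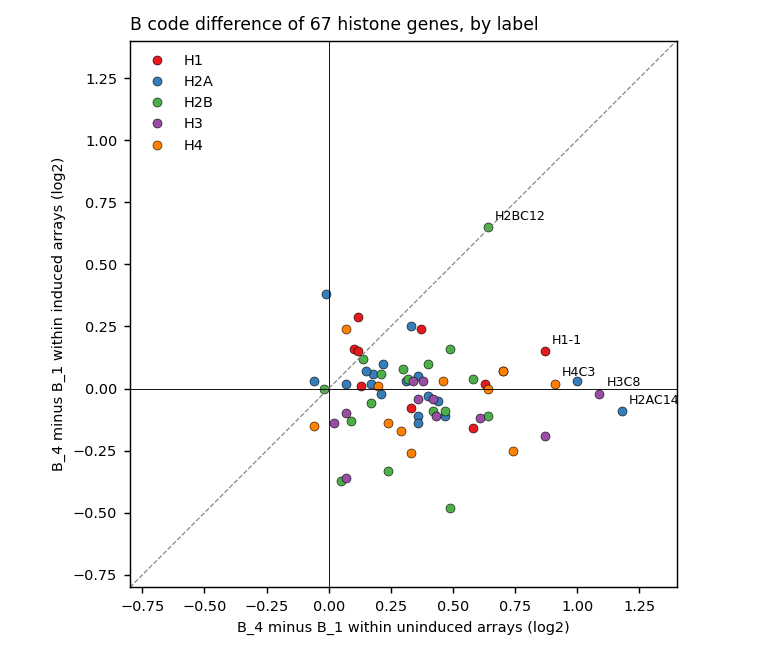
Log2 difference B_4 minus B_1 for the 67 tested histone genes, within the arrays labelled uninduced (x axis) and within those labelled induced (y axis), coloured by class, with the dashed line marking equal differences. Most points lie right of 0 and near 0 on the y axis, with medians of 0.34 and 0.01, and H2BC12 lies at 0.64 and 0.65.

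Genes that make, process and deposit histones also differed in both directions. Of 24 tested genes for histone gene transcription and mRNA processing, 9 were higher and 10 lower (37.5% and 41.7%, beside 27.1% and 28.4% of all tested genes). SLBP, which binds the histone stem-loop, had 9.51, 9.58, 9.66 and 9.14 in the arrays labelled induced, against 8.25, 8.29, 8.42 and 8.47 in the arrays labelled uninduced (1.11 ± 0.12, adjusted p = 1.33e-05). NPAT, the coactivator of clustered histone genes, was -0.24 ± 0.09 lower (adjusted p = 0.0482), a call lost without 6 of the 8 arrays in turn and with each array centred on its median (-0.10). CDK2, the kinase that acts on NPAT, was 2.34-fold lower (-1.23 ± 0.08), while its partner CCNE2 was 3.64-fold higher (1.86 ± 0.16). Another partner of CDK2, CCNE1, was lower (-0.40 ± 0.15, limma adjusted p = 0.0384), with values that overlapped between labels. TUT7, a uridyltransferase of RNA decay, was higher (1.06 ± 0.10). Of 29 tested chaperone and nucleosome assembly genes, 15 were higher and 5 lower (51.7% and 17.2%), including HIRA (1.45 ± 0.10), a chaperone of H3.3, ANP32E (1.14 ± 0.10), which removes H2A.Z, and SET (0.91 ± 0.08), a chaperone of core histones. Of 33 tested S phase genes, 9 were higher and 10 lower (27.3% and 30.3%), shares near those of all genes. Among them were the primase subunit PRIM1, 4.62-fold lower (-2.21 ± 0.08), the replicative helicase subunit MCM6, lower (-0.76 ± 0.08), and the polymerase subunit POLE, higher (1.45 ± 0.08). In the arrays labelled uninduced, 29 of those 33 had both B_4 values above both B_1 values (87.9%, 27.5% of all genes). For 2 of them both lay below (28.6% of all genes).

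The exon-level table, a second summary of the same arrays, held 252 probe sets for 70 histone genes, of which 194 passed the filter. There 56 were higher and 35 lower (17.9% and 17.5% of 168240 probe sets). Probe sets of a gene disagreed for 8 genes, with at least 1 called higher and 1 called lower: H1-2, H2AC8, H2BC4, H2BC5, H2BC7, H2BC8, H2BC11 and H2BC21. The share of all genes with such disagreement is not given here, so it is not a trait shown to be particular to histone genes. The genes and probe sets of this paragraph were picked after their values were seen. In H2AC6, a probe set had 4.41, 4.63, 4.73 and 4.57 in the arrays labelled induced, against 10.66, 10.60, 11.42 and 11.16 in the arrays labelled uninduced. The mean labelled induced lay under the filter level, and the probe set was at least 73.0-fold lower (fitted difference -6.37 ± 0.18, adjusted p = 1.53e-06), while another probe set of the gene was lower by -0.59 ± 0.15 only (adjusted p = 0.0195). In H2BC11 the probe sets ran from -3.61 ± 0.21 to 1.01 ± 0.18, both called. H2AX, not called at gene level, had 2 probe sets called higher (1.29 ± 0.19 and 1.02 ± 0.15) and 3 that did not pass. For H1-4 all 4 probe sets were higher, from 2.06 to 2.92. For H1-1, 1 of 3 passed the filter and was 31.9-fold lower (-5.00 ± 0.20), and for H2BC12 one was 12.9-fold lower (-3.69 ± 0.15) and the other did not pass (-0.54 ± 0.28, adjusted p = 0.189).

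**Figure D5:**
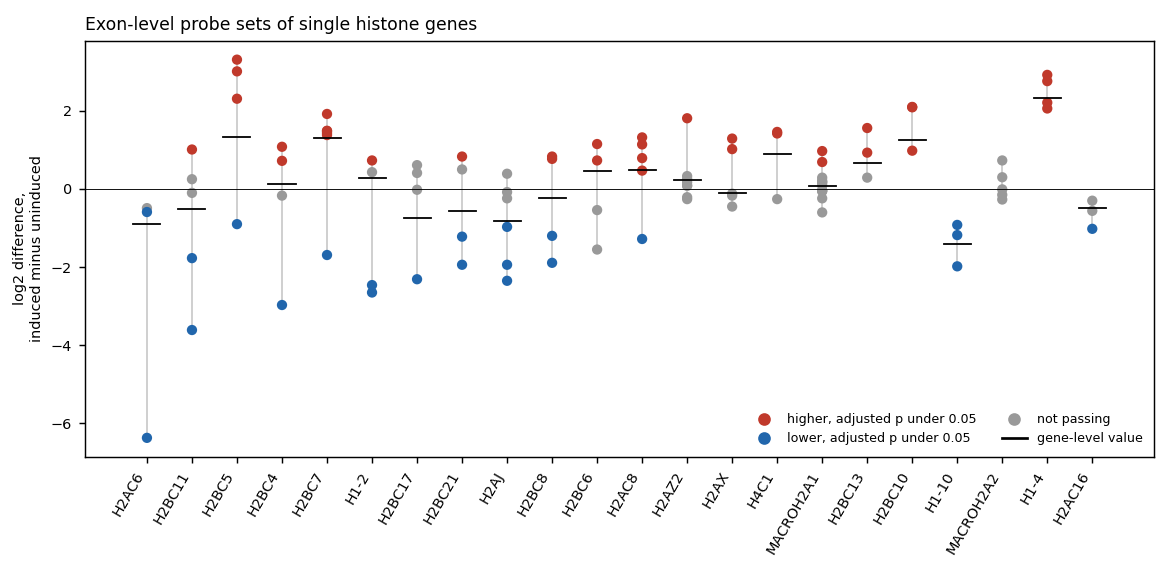
Log2 difference (induced minus uninduced, 4 arrays per label) of the exon-level probe sets of the 22 histone genes with at least 3 tested, ordered by their spread, with the gene-level value as a bar. The points of H2AC6 run from -6.37 to -0.49, and those of H1-4 stay between 2.06 and 2.92.

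Gene-level and exon-level summaries had the same sign for 38 of the 43 called histone genes with exon-level values. The other 5 were H2AC25, H2BC6, H3C10, H4C6 and H4C8. The exon-level sign was that of the mean over all probe sets of a gene, those under the filter included. The only probe set of H4C6 that passed the filter stood at 0.35, on the side of its gene-level 0.26. In H2BC6 the called probe sets were higher (1.15 and 0.73), and the other tested ones stood at -1.55 and -0.54 without passing. In H4C8 a probe set had 12.17, 11.97, 12.22 and 11.98 in the arrays labelled induced, against 10.86, 10.95, 11.63 and 11.52 in the arrays labelled uninduced (0.84 ± 0.18, adjusted p = 0.0111). The other differed by -0.82 ± 0.27 (adjusted p = 0.0508), and the gene-level value was -1.73. Histone genes have near-identical copies, and which copies a probe set detected was not tested.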

How the data were processed

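The authors deposited normalized log2 signals of Affymetrix whole-transcript arrays as a gene-level and an exon-level table of the same 8 arrays. The submitters' processing notes name RMA and Partek without versions. The array build is not given in the sources used here, and the log base was taken from the range of the values (2.07 to 14.1 at gene level). Probe sets were named through the platform table, with symbols updated to current ones. A single symbol was found for 19460 gene-level probe sets, more than 1 for 1754 and none for 12083. Per gene the probe set of highest mean was kept, and genes with a mean under 4.77 (25th percentile) were left out. Where a label's mean lay under that level, the fold was taken against it as a lower bound. limma 3.58.1 in R 4.3.3 was fitted to 13796 genes with label, B code and last number as terms, with Benjamini-Hochberg adjustment and a threshold of 0.05. A further fit added the interaction of label and B code. Exon-level probe sets were fitted alike. RELB was also tested by an exact permutation test (scipy 1.17.1). No detection calls were used, and the 8 arrays limit the precision. On simulated data with the real means and spreads, 50 genes were changed at each size, with noise independent between genes. The label fit over 13796 genes recovered 80% of changes of 0.5 (log2) and 100% of larger ones, with 6.86% false calls. The interaction fit recovered 2% at 0.5 and 68% at 1. By label 55.5% of genes were called in the real data, a far larger share than was changed here, so these rates may not carry over. The histone genes, lists and tests were chosen with earlier results of these data known. Genes named singly were RELB, the 3 highest and 3 lowest called differences of each class, the variant genes, the lowest p of the B code, interaction and list tests, SLBP and NPAT; other names were added after the values were seen.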

Additional observations from a re-analysis of the deposited data

Results flagged for a closer look

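A sample apart from the other 3 of its label was found in 5 of 106 groups examined among the named genes (Dixon's test), where chance gives about 1 in 20. H4C16 read 5.53 in the induced B_4 array with the last number 1, against 5.84 to 5.88 in the other arrays labelled induced, and 6.34 in the uninduced B_1 array with the last number 4, against 6.85 to 6.87 in the other arrays labelled uninduced. In the arrays labelled uninduced, CDK2 read 10.67 in the B_4 array with the last number 1, TUT7 read 7.61 in the B_1 array with the last number 1, and HIRA read 7.89 in the B_1 array with the last number 4. The label difference of H3C8 differed between B codes by -1.11, by the test of the interaction.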

How the results depend on the processing

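Over the alternatives the count of higher histone genes was 18 to 31 and of lower ones 13 to 23; with any 1 array left out it was 24 to 28 and 20 to 21. Of 979 values for 47 named genes, 937 kept direction and call, 31 lost the call, 1 gained it and 10 reversed. The cause was not tested in any case. With exon-level means, H2AC25 turned to 0.04, H3C10 to 0.44, H4C8 to 0.01 and H2AX to 0.32; with median centring H2AX was 0.02. With 1 array left out, H3-4 ran from -0.02 to 0.16 and H3C8 from -0.02 to 0.27. The count of interaction calls was 0 with exon-level means and 0 to 0 with 1 array left out; that of B code calls 0 to 1 (1 without the fourth array labelled induced), and 15 within the arrays labelled uninduced, which became 6 with exon-level means and 0 to 16 with 1 array left out. Within B_1 13 histone genes were lower. With at least 1.5-fold required, 10 of 24 processing, 9 of 29 chaperone and 9 of 33 S phase genes were called. The share of all genes called is not given here for that fold or for most other alternatives, so these counts describe the members only. On the gene's own strand alone, ATTTGCAT was in 13 and AAACACA in 5 histone promoters. Over all genes, median centring gave 5431 higher and 3094 lower calls, against 3744 and 3912 as deposited, and quantile normalization 4719 and 3737.

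Pairs of equal B code and last number shared only numbers: deviations of the paired arrays correlated at 0.16, -0.02, 0.11 and 0.02, and 3 of 8 arrays correlated best with their own number. With the pair as a fixed replicate block 25 histone genes were higher and 20 lower, and as a random block 26 and 20. The random block, at a consensus correlation of -0.52, called 15 of 67 histone genes between B codes, all higher in B_4. Over all genes it called 809 higher and 1264 lower (5.86% and 9.16%), where the main fit called 0. A negative correlation within pairs narrows the error of a difference between pairs, so no conclusion is drawn from these calls. A fixed block holds the B code within it and gives no value for it.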
